A study of Rattus norvegicus with 18 samples.

Results

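Livers of rats given N-nitrosodiethylamine (DEN) for 28 days were compared with livers of control rats of the same day, gene by gene. The comparison was chosen by sample title and used 6 of the 18 arrays of the series, 3 from DEN livers and 3 from control livers. The rats were male F344/NSlc, bought at 5 weeks of age and acclimatized for 1 week. DEN was given daily by gavage at 4 mg/kg in 5 mL/kg of saline. The controls are called vehicle in the sample titles and untreated rats on basal diet in the protocol, so whether they received saline by gavage is not settled, and an effect of gavage cannot be told apart from one of DEN. The other arrays came from DEN and control livers of day 84 and from livers of rats given CCl4, a hepatotoxin that is not a direct DNA-damaging agent, at 100 mg/kg in corn oil for 28 or 84 days. Whole liver RNA was measured, so fewer cells of a type and less RNA per cell cannot be told apart. The labels number the samples of a group 1 to 3 without naming the animals, so p-values measure only the spread between samples, which may be partly technical. That spread was estimated over all 18 arrays, so p-values and SEs also carry the spread of the day 84 and CCl4 groups. Age at sampling is not given in the labels.

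DEN is oxidised by hepatocyte cytochrome P450 enzymes, chiefly Cyp2e1, to a reactive species that ethylates DNA bases. Mgmt removes alkyl groups from guanine directly, whereas other adducts go through base or nucleotide excision repair. Unrepaired lesions activate the transcription factor p53, whose targets halt the cell cycle or start apoptosis.

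Levels below are log2 processed signals minus the 75th percentile of the array, so 0 is the 75th percentile. A gene was tested where its probe was well above background in all 3 DEN or all 3 control arrays, and called where limma's adjusted p was under 0.05. Of 9826 genes tested, 1799 were called (18.3%), of which 917 rose (9.33%) and 882 fell (8.98%). Changes of at least 2-fold were found for 253 rises and 79 falls, and of at least 4-fold for 57 rises and 9 falls. The called rises had a median of 0.73 and the called falls a median of −0.41, beside −0.05 for all genes. Of the called genes, 1767 had DEN and control arrays that did not overlap, against 18.1% of all genes with DEN above control and 28.1% with DEN below. All 6 arrays lay on 1 slide, with DEN 2 and DEN 3 in another row of it than DEN 1 and the controls. The 75th percentile itself was higher in DEN arrays (215.4 to 233.4) than in control arrays (169.8 to 181.5), and by 0.41 log2 relative to the 8 spike-in probes. Scaling to those probes moved the median of all genes to 0.36 and the share of rises among the called genes to 98.0%, against 51.0% here. With quantile normalization that share was 63.1%. All directions below are therefore relative to the bulk of the array. Counts of list members below are to be read beside the 9.33% of all genes that rose and the 8.98% that fell. Lists and members were chosen with earlier results of these data known, and some lists hold genes of the largest rises and falls. The counts are therefore descriptions and not tests. Some genes are counted in several lists, so counts of different lists are not separate evidence.

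**Figure D1:**
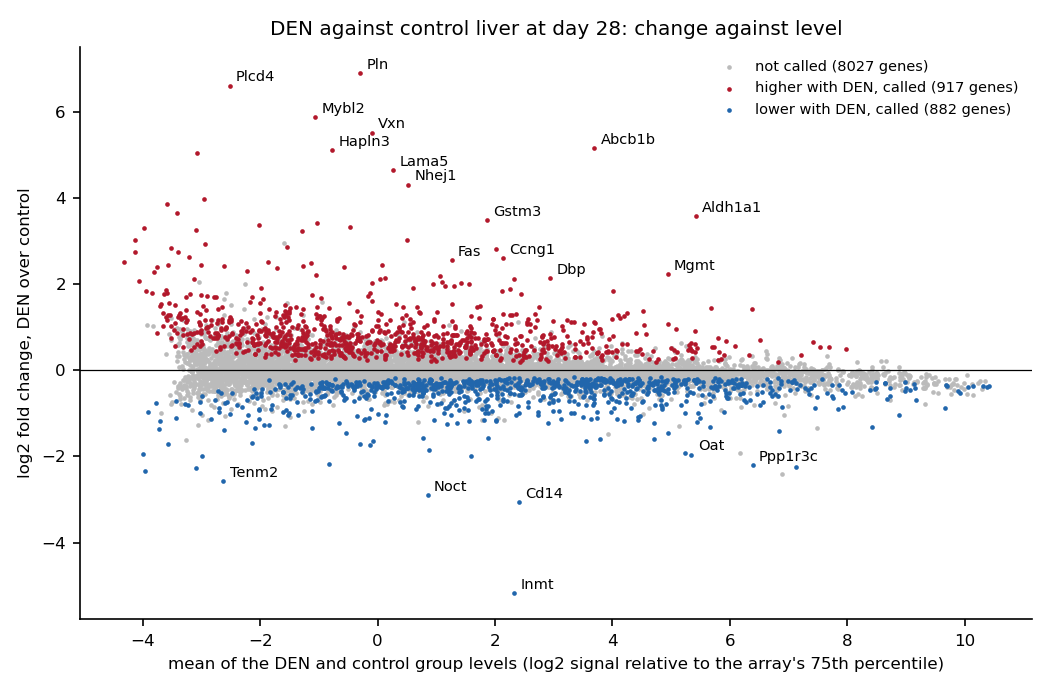
Each point is 1 of 9826 genes. The horizontal axis is the mean of the DEN and control levels (log2 relative to the array's 75th percentile) and the vertical axis the log2 fold change of DEN over control. The 917 called rises reach higher values than the 882 called falls, with Pln at 6.90 and Inmt at −5.17.

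The largest rises were of genes with no single role. Pln, which encodes phospholamban, an inhibitor of the calcium pump of the endoplasmic reticulum in muscle, had levels of 3.55, 2.79 and 3.13 in DEN livers and −4.01, −3.12 and −4.10 in control livers. That is a log2 change of 6.90 ± 0.36 (SE, adjusted p 2.4e-08), or 119-fold, with the probe well above background in 1 of the 3 control arrays. The calcium handling and striated muscle list did not follow it: of 12 members tested, Pln alone rose, and Atp2a2, the pump that phospholamban inhibits, fell by 0.30, a call that was lost under 12 of 19 alternatives and a sign that turned (0.11) with spike-in scaling. Abcb1b, a multidrug export pump of rodents, had 6.38, 6.12 and 6.33 in DEN livers and 0.97, 1.12 and 1.26 in control livers, a change of 5.16 ± 0.17 (adjusted p 2.1e-10). All 3 of its probes rose, by 4.62 to 7.21. It was the only riser among 18 export and uptake transporters tested, where Abcb11, the bile salt export pump, fell by 0.47, a call lost under 9 of 19 alternatives.

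Mybl2, a transcription factor of cycling cells, was well above background in DEN livers alone, with 2.19, 1.60 and 1.81, against −3.72, −4.29 and −3.97 in control livers, which were not well above background. It was at least 44.1-fold higher. Plcd4, a phospholipase C, was at least 20.7-fold higher by the same rule, and Svop, a synaptic vesicle protein, at least 8.23-fold higher. Such a bound sets the mean of the bright group against the higher, on each dim array, of the weakest detected signal and the probe's own signal. Of the 20 largest rises, 8 had controls not well above background.

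A pair of matrix genes and a repair gene stood in the same range. Hapln3, which links hyaluronan to proteoglycans, had 2.47, 1.08 and 1.79 in DEN livers and −3.21, −3.42 and −3.37 in control livers, a change of 5.11 ± 0.27, with 2 of 3 control arrays well above background. Lama5, a laminin chain of basement membranes, had 2.81, 2.27 and 2.71 in DEN livers and −2.01, −1.77 and −2.37 in control livers, a change of 4.65 ± 0.34. Nhej1, a factor of DNA end joining, had 2.94, 2.41 and 2.66 in DEN livers and −1.69, −1.81 and −1.41 in control livers on 1 probe. A dimmer probe of Nhej1 had a value of −0.14 and was not called, so the rise of 4.31 ± 0.22 is shown by 1 of 2 probes. Aldh1a1, which oxidises retinaldehyde, had 7.36, 7.16 and 7.14 in DEN livers and 4.04, 3.59 and 3.28 in control livers, a 12.0-fold difference.

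Inmt, an N-methyltransferase of indole amines and the largest fall, had −0.71, 0.20 and −0.25 in DEN livers and 5.14, 4.93 and 4.67 in control livers, a change of −5.17 ± 0.81 (adjusted p 0.00078), or 36.0-fold lower. Cd14, a co-receptor for lipopolysaccharide, had 0.56, 1.13 and 0.96 in DEN livers and 4.25, 3.84 and 3.71 in control livers, a change of −3.05 ± 0.19 (adjusted p 8.7e-08). Ppp1r3c, which targets a phosphatase to glycogen, had 5.21, 5.25 and 5.43 in DEN livers and 7.59, 7.50 and 7.39 in control livers. Groups that did not overlap were a condition for being listed among the largest rises and falls. Nr0b2, a repressor of bile acid synthesis, fell by 2.25, Oat, an ornithine aminotransferase, by 1.96, and Fhit, a gene at a chromosomal fragile site, by 1.74. Noct, a deadenylase-like clock output, changed by −2.89, but its call was lost without DEN 1 (−2.72) or DEN 3 (−2.83). Ropn1l, a ciliary protein, changed by −2.27, was well above background in 1 of 3 DEN arrays and lost its call without DEN 2 (−1.76).

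**Figure D2:**
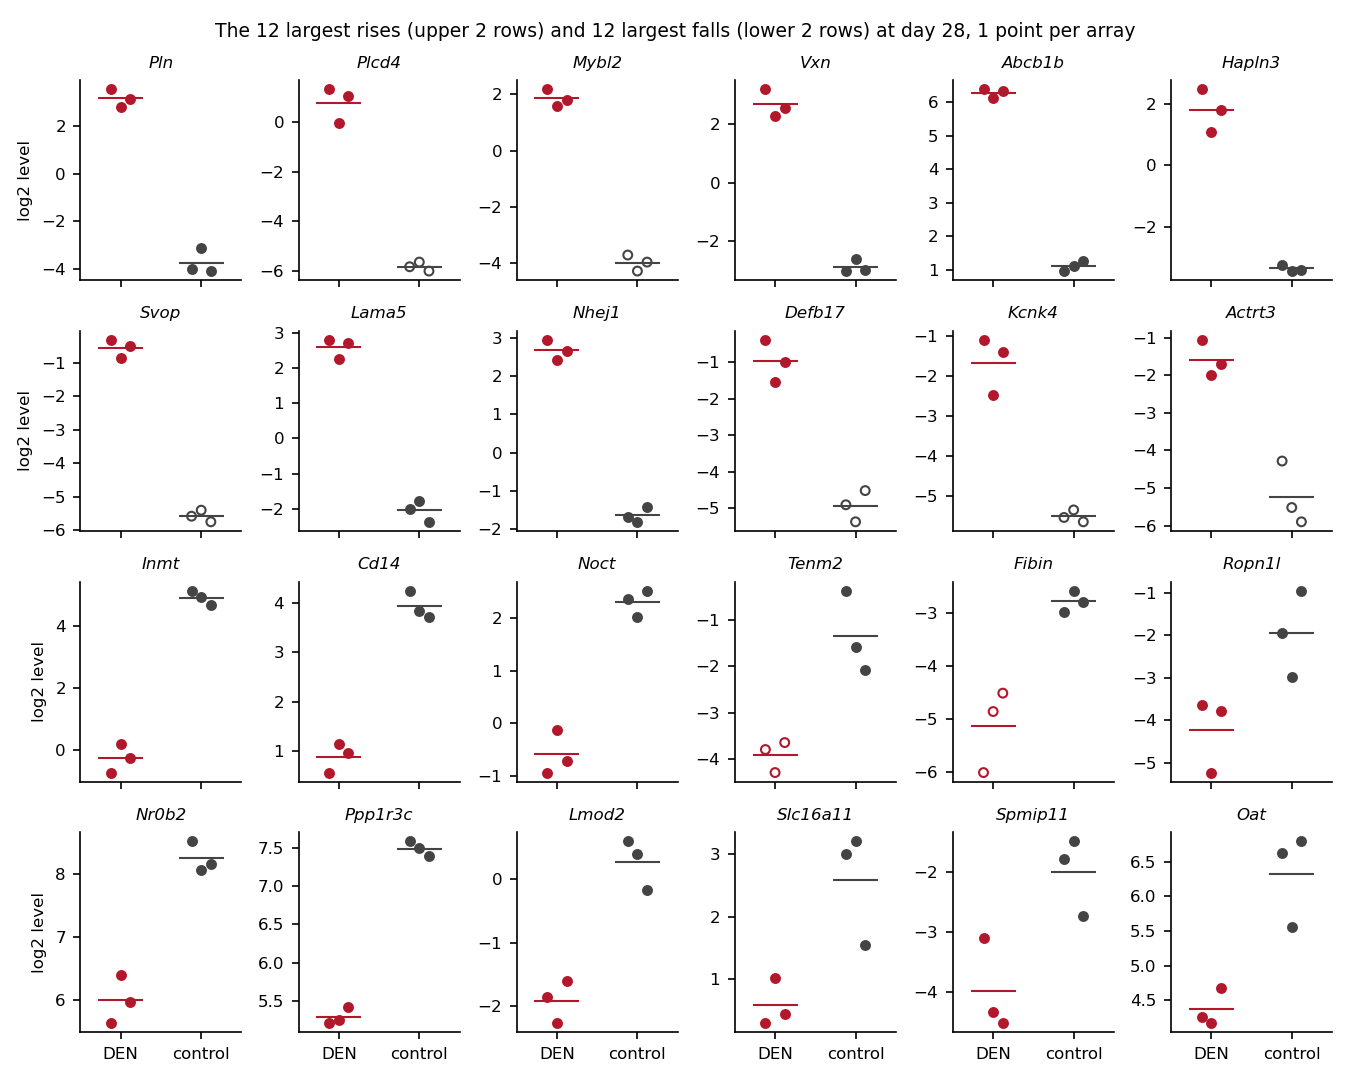
Level of the 12 largest rises and 12 largest falls on each array (log2 relative to the array's 75th percentile), DEN left and control right, with the group mean as a line. Open circles mark a group in which no array was well above background. Genes were chosen from those whose groups did not overlap.

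The p53 targets of cell cycle arrest and feedback rose, with 7 of 10 tested members up and 2 down (median 1.16). Ccng1, a cyclin that p53 induces, had 3.48, 3.28 and 3.56 in DEN livers and 0.92, 0.77 and 0.85 in control livers, a change of 2.60 ± 0.11. Mdm2, the ligase that marks p53 for degradation, had 1.70, 1.38 and 1.59 in DEN livers and −0.35, −0.35 and −0.33 in control livers, a change of 1.90 ± 0.12. Plk2, a stress-responsive kinase, rose by 1.48 ± 0.18. Plk3 fell by 1.01 and Sesn2 by 0.43, the Sesn2 call lost under 5 of 19 alternatives. With spike-in scaling 7 rose and 0 fell, and with only the 6 arrays or the slide as a block 3 fell. The added fall there was of Cdkn1a (−0.27), whose probes differ in direction, as described below. Among p53 targets of apoptosis, 9 of 13 rose and 0 fell (median 0.76). Fas, a death receptor, had 2.85, 2.31 and 2.46 in DEN livers and 0.34, −0.40 and 0.02 in control livers. Aen, a nuclease, had 5.00, 4.77 and 5.01 in DEN livers and 2.94, 3.21 and 3.13 in control livers. Phlda3, an Akt inhibitor, rose by 2.03, and Bax, a mitochondrial pore protein, by 1.27 ± 0.08. Neither rising count was below 7 when any single array was left out.

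Cdkn1a, the p21 inhibitor of cyclin-dependent kinases, gave different answers on its 3 probes. The probe used here, by a narrow margin the brightest over all 18 arrays (mean 4.99, against 4.86 for the next), had 5.07, 5.07 and 5.10 in DEN livers and 5.40, 5.32 and 5.33 in control livers, and it was not called (−0.27, adjusted p 0.13 over genes and 0.14 over probes). With only the 6 arrays or the slide as a block this probe was called lower. The next probe had 7.246, 7.004 and 7.253 in DEN livers and 5.83, 5.81 and 5.79 in control livers, a change of 1.35 (adjusted p 0.00098 over all probes). The dimmest probe changed by 1.64 (adjusted p 0.0077). All 3 carry the same transcript accession, so 2 of 3 probes show Cdkn1a higher and the gene's row in the list does not. Over all 751 genes of the lists and named sets, 359 had several probes passing and 33 of these had probes of opposite sign.

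The promoter stretches of 2 of these p53 targets show the sites searched. Sequences are RefSeq's, build GRCr8, given 5′ to 3′ on the gene's strand. Capitals mark a match to the decamer of the p53 half-site, whose consensus reads the same on both strands. Ccng1 is at chr10:25684997-25685126 (minus strand) and Aen at chr1:142224403-142224532 (plus strand).
Ccng1: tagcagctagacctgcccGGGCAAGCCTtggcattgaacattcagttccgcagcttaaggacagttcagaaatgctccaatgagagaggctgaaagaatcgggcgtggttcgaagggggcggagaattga
Aen: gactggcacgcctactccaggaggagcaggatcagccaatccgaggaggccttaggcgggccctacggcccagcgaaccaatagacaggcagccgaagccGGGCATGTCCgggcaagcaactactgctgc
Within 250 bases before the start, 5 of the 19 p53-list promoters in the table held the decamer (26.3%), beside 5.84% of the 8104 promoters of tested genes. None of the 16 promoters of the largest rises did (0). A match is a description of letters only, and a half-site alone is not a full p53 site.

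The repair lists differed in their calls. Mgmt had 6.20, 5.90 and 6.06 in DEN livers and 3.86, 3.94 and 3.69 in control livers, a change of 2.23 ± 0.13 (adjusted p 3.9e-08), or 4.68-fold. With Alkbh2, an alkyl-DNA dioxygenase at 0.30 whose call was lost under 11 of 19 alternatives, it made up the 2 of 13 members of direct reversal and base excision that rose. That is 15.4%, against 9.33% of all genes, with none falling (0) and a median of 0.05. Of 11 nucleotide excision genes 0 rose and 1 fell (9.1%, close to the 8.98% of all genes). That was Xpc, a damage sensor, by 0.42, a fall that was not called with spike-in scaling (−0.02). Homologous recombination and Fanconi genes had 5 of 8 tested members up (62.5%, median 0.64), among them Brca2, a recombination mediator, at 0.69. Without DEN 1, DEN 2 or control 2 the count was 2, and with normexp background correction, which shrinks dim signals, it was 1.

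Cell division genes lay higher, unevenly between the DEN livers. All 18 tested members of the mitosis list were above 0, with a median of 0.81, and 7 were called up (38.9%, against 9.33% of all genes). Mki67, the proliferation antigen Ki-67, had 1.806, 1.410 and 0.997 in DEN livers and 0.65, 0.50 and 0.60 in control livers, and Cdk1, the mitotic kinase, had 2.98, 2.76 and 1.77 in DEN livers and 1.71, 1.65 and 1.52 in control livers. Mki67 changed by 0.82 ± 0.20 (adjusted p 0.012) and Cdk1 by 0.87 ± 0.29 (adjusted p 0.048), a Cdk1 call lost under 11 of 19 alternatives. DEN 3 was the lowest DEN array for both genes and lay close to the controls. Without DEN 3, 17 of the 18 members were called, and without DEN 1, 2 were, where Mki67 changed by 0.62 and lost its call. Replication genes had 5 of 17 up and 1 down (median 0.25). Tyms, thymidylate synthase, changed by 1.22, Mcm3, a helicase subunit, by 1.16, and Mcm10 by −0.89. Of the G1 to S genes, 4 of 12 rose, Mybl2, Ccnd1 at 1.12, Ccne1 at 0.99 and E2f1 at 0.62, of which another probe had −0.11. The Ccne1 call was lost under 6 of 19 alternatives, and over the 11 members well above background on all 6 arrays, which leaves out Mybl2, 3 rose.

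The mitosis promoters are shown because the list shares letters beyond its function. Capitals mark TTTGAA, the core of a repressor element of cell cycle genes, and CCAAT, which appears as ATTGG on the opposite strand. Both strands were searched, and in Mki67 the last TTTGAA and ATTGG overlap. Cdk1 is at chr20:19265078-19265292 (plus strand) and Mki67 at chr1:199952669-199952798 (minus strand).
Cdk1: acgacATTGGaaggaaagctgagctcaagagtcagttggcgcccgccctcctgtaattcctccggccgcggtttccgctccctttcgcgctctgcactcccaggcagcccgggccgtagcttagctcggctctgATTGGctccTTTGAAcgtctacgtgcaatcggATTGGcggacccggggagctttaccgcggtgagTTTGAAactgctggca
Mki67: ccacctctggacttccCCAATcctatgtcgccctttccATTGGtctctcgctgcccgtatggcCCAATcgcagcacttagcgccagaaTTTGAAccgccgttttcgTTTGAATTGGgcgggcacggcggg
In the 250 bases before the start, TTTGAA was in 6 of 15 mitosis promoters (40.0%, beside 10.6% of tested genes' promoters). CCAAT was in 13 of 15 (86.7%, beside 36.5%), and both were in 6 of 15 (40.0%, beside 4.2%).

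Detoxification genes moved in both directions. Of the NRF2 and glutathione list 5 of 16 rose and 0 fell (median 0.32), a count that did not change when any single array was left out. Besides Aldh1a1, these were Gpx2, a glutathione peroxidase, at 2.18, Akr7a3, an aldehyde reductase, at 1.44, Ephx1, the microsomal epoxide hydrolase, at 1.42, and Srxn1, which reduces peroxiredoxins. Nqo1, a classical NRF2 target, had a value of 0.53 and was not called, but it was with spike-in scaling (0.94). Gpx2 had 2.26, 1.86 and 2.35 in DEN livers and 0.03, 0.24 and −0.34 in control livers. In the list of glutathione, glucuronide and sulfate conjugation 6 of 24 rose and 4 fell. The glutathione transferase Gstm3 led the rises (3.48). Inmt, a methyltransferase that was counted in this list, led the falls. Gstp1, the marker of altered hepatocyte foci in rats, had 5.06, 4.91 and 4.99 in DEN livers and 4.34, 4.27 and 3.85 in control livers, a change of 0.84 ± 0.11.

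Among 29 xenobiotic P450 genes, 3 rose (10.3%, against 9.33% of all genes) and 5 fell (17.2%, against 8.98%), with a median of −0.35 that became 0.06 with spike-in scaling. Cyp2c24 rose by 3.38, with 1 of 3 control arrays well above background. Cyp2c12, a form that predominates in female rats, had 2.98, 3.17 and 2.96 in DEN livers and 1.12, 1.24 and 1.21 in control livers. Cyp2b2, an enzyme inducible through the receptor CAR, had 4.72, 5.01 and 4.82 in DEN livers and 6.60, 6.36 and 5.17 in control livers, a call lost under 7 of 19 alternatives. The falling count was 0 to 4 when single arrays were left out and 14 in a fit of only the 6 arrays, and the rising count was 3 in each of these. Cyp2e1, which activates DEN, had 8.29, 8.21 and 8.33 in DEN livers and 8.30, 7.83 and 8.09 in control livers, groups that overlap (0.20 ± 0.23). With spike-in scaling Cyp2e1 was called higher (0.61).

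**Figure D3:**
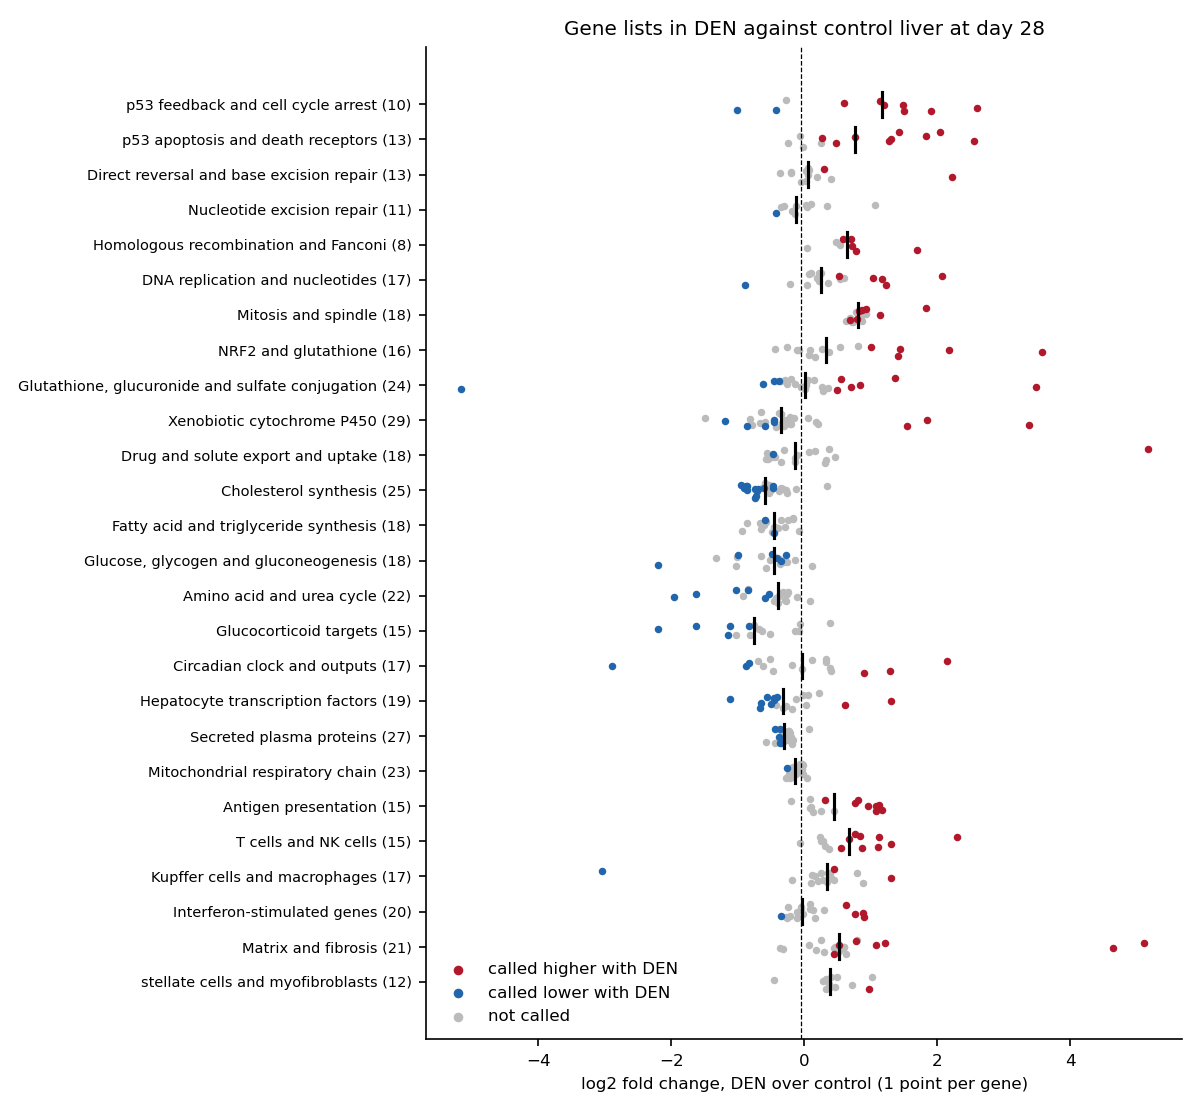
Log2 fold change of DEN over control for each tested member of 26 gene lists, with the number tested in brackets; red and blue points were called and grey points were not. The short black line is the list's median and the dashed line the median of all genes, −0.05, and the p53 lists lie right of it and cholesterol synthesis left.

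Lipid and glucose genes lay below the median of all genes. Of 25 cholesterol synthesis genes 13 fell and 0 rose (52.0%, against 8.98%), 24 were below 0, and the median was −0.59, which stayed negative (−0.18) with spike-in scaling, where 1 fell and 1 rose. Hmgcs1, the synthase that makes the precursor of mevalonate, had 6.41, 6.53 and 6.46 in DEN livers and 7.66, 7.13 and 7.19 in control livers, a change of −0.86 ± 0.18. Idi1, an isomerase of isoprene units, had 2.33, 2.52 and 2.67 in DEN livers and 3.90, 3.07 and 3.41 in control livers, a change of −0.95 ± 0.21. Control 1 was the highest array for both, and without it 4 of the 25 were called. Without DEN 1 the count was also 4, and without control 2 it was 16.

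Hmgcs1 (chr2:53382080-53382209, plus strand) and Idi1 (chr17:66547525-66547654, minus strand) carry CCAAT letters, marked as above, and are shown as called members described above.
Hmgcs1: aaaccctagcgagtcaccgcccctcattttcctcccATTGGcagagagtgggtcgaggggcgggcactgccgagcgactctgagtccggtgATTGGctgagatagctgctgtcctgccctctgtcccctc
Idi1: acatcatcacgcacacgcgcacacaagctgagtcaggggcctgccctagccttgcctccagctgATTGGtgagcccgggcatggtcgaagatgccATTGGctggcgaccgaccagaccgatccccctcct
CCAAT was in 14 of 17 cholesterol promoters (82.4%, beside 36.5%). TCACNCCAC, one form of the sterol response element, was in 0 of 17, beside 1.05% of tested genes' promoters.

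The glucocorticoid target list had 5 of 15 members down (33.3%, against 8.98% of all genes) and 0 up. Its median was the lowest of the metabolic lists (−0.75, and −0.34 with spike-in scaling). The falling count was 5 or 6 with each single array left out and 8 with only the 6 arrays. Nr3c1, the glucocorticoid receptor, had 0.82, 0.82 and 0.77 in DEN livers and 1.44, 1.72 and 1.75 in control livers (−0.84 ± 0.15). Tsc22d3, a leucine zipper protein that the receptor induces, had 3.06, 3.01 and 3.15 in DEN livers and 4.32, 4.16 and 4.16 in control livers (−1.14 ± 0.25). Tat, tyrosine aminotransferase, changed by −1.63 and Cebpb, a hepatocyte transcription factor, by −1.11. Tat is counted again among the hepatocyte markers below. Fkbp5, another classical target, had a value of 0.39 and was not called, but it was called higher with spike-in scaling (0.79). Glucose and glycogen genes had 6 of 18 down (33.3%, median −0.45, and −0.05 with spike-in scaling). That count was 1 to 3 when single arrays were left out, 9 with the slide as a block and 13 with only the 6 arrays. Amino acid and urea cycle genes had 6 of 22 down (27.3%, median −0.39, and 0.02 with spike-in scaling). That count was 2 to 4 with single arrays left out and 10 with only the 6 arrays.

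Hepatocyte transcription factors had 8 of 19 down (42.1%, against 8.98% of all genes) and 2 up (10.5%, against 9.33%). Their median was −0.32, and 0.09 with spike-in scaling. Hnf4a, a master regulator of hepatocytes, had 3.63, 3.68 and 3.68 in DEN livers and 4.08, 4.49 and 4.42 in control livers. Without DEN 1 or DEN 2 the falling count was 2. The Foxa2 rise of 1.31 (adjusted p 0.047) lost its call under 11 of 19 alternatives, with DEN 1 at 1.99 and the other DEN arrays at 3.16 and 3.21, above 1.27, 1.39 and 1.79 in control livers. All 16 hepatocyte markers were tested, 5 fell and 0 rose, and their summed signal was 6179 to 6349 in DEN livers against 7531 to 7746 in control livers. Their median of −0.30 became −0.04 with quantile normalization, where 3 fell, and 0.10 with spike-in scaling. With only the 6 arrays 9 fell. The lower marker signal is thus relative to the scaling used. Whether it contributes to the falls of metabolic genes was not tested.

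Clock genes split by direction. Dbp, a clock output transcription factor, had 4.08, 4.03 and 3.91 in DEN livers and 1.72, 1.74 and 2.13 in control livers, a change of 2.14 ± 0.24. Nr1d1, the repressor REV-ERBα, had 1.101, 1.279 and 1.034 in DEN livers and 0.53, −0.49 and −0.49 in control livers. Cry1, a repressor of the clock loop, changed by −0.83. Npas2, an activator, changed by −0.88 on 1 of 3 probes, the others having −0.77 and 0.05 without a call, and its call was lost under 11 of 19 alternatives. Of 17 members 3 rose and 3 fell (median −0.04). Bmal1, at −0.47, was not called, but it was called lower with only the 6 arrays. The time of day of sampling is not given in the sources used here, and its part in these values was not tested.

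**Figure D4:**
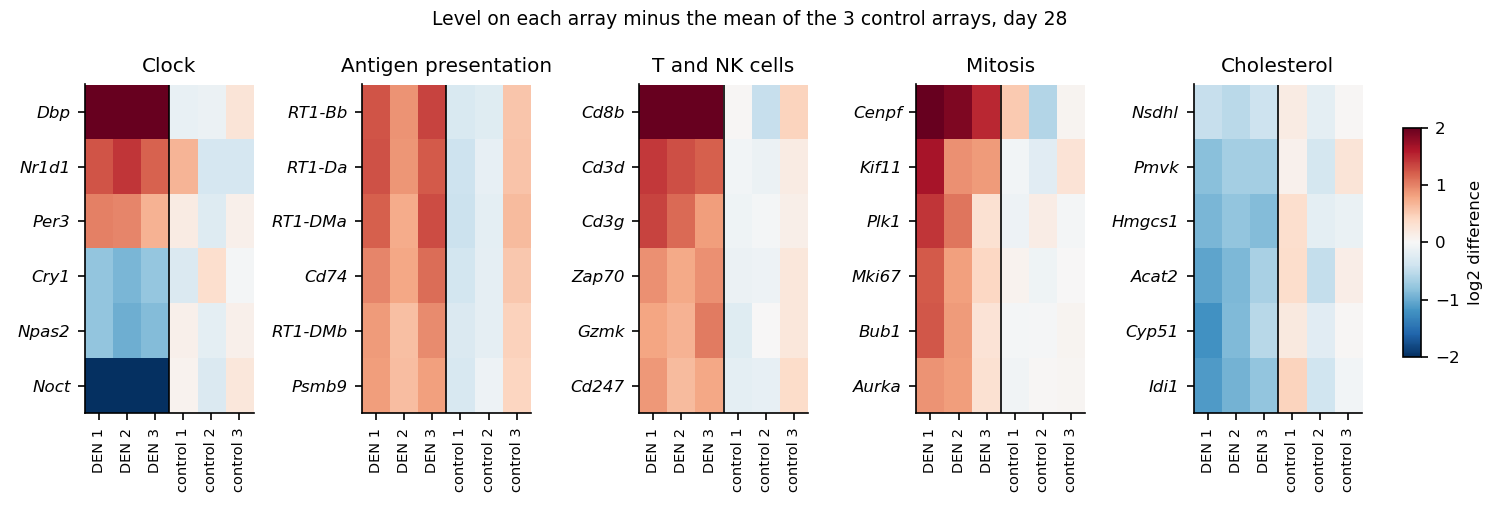
Level of each array minus the mean of the control arrays (log2, colour capped at 2 either way), DEN arrays left of the line and control arrays right. Up to 6 called members with the smallest adjusted p are shown per list, and DEN 3 is the palest DEN array in the mitosis panel.

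Of 15 T and NK cell markers tested 9 rose and 0 fell (60.0%, against 9.33% of all genes, median 0.68). The count was 7 or 8 with any single array left out and 6 with normexp background correction (median 0.30). Their summed signal was 15.0 to 15.8 in DEN livers against 9.47 to 12.5 in control livers. Among cytotoxic granule and NK receptor genes, Gzmk had 0.84 and Nkg7 0.68, but Gzmb had 0.31, Klrd1 0.27, Klrb1a 0.24, Prf1 0.24 and Gzma −0.06. Cd8b, a chain of the CD8 co-receptor, had −1.02, −0.87 and −1.34 in DEN livers and −3.36, −3.83 and −2.94 in control livers, a change of 2.30 ± 0.18, with 1 of 3 control arrays well above background. Cd3d, part of the T cell receptor complex, had 0.82, 0.70 and 0.61 in DEN livers and −0.65, −0.70 and −0.42 in control livers. The groups did not overlap for either gene. Of the 2 Cd8b probes 1 was too dim to pass the filter. Cd8a, the other CD8 chain, had a value of 0.55, and Cd4 one of 0.37. Of 15 antigen presentation genes 8 rose and 0 fell (53.3%, median 0.45). The rises were chiefly of class II genes: RT1-Bb had 3.91, 3.55 and 3.99 in DEN livers and 2.34, 2.41 and 3.20 in control livers, and Cd74, the class II chaperone, changed by 0.96. Class I genes RT1-A1 and RT1-A2 both had a value of 0.08 and were not called, but both were with spike-in scaling (0.49 each). Control 3 was the highest control array for RT1-Bb.

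Macrophage markers had 2 of 17 up (11.8%, against 9.33% of all genes), Gpnmb at 1.30 and Cd68 at 0.45 (a call lost under 5 of 19 alternatives). Of the 17, 1 fell, Cd14 (5.9%, against 8.98%), and their summed signal was 416 to 438 in DEN livers against 349 to 425 in control livers. Clec4f, which marks Kupffer cells, had a value of 0.10, and Cd163, a scavenger receptor, one of 0.16. Among interferon-stimulated genes 4 of 20 rose and 1 fell (median −0.03). Matrix genes had 7 of 21 up (33.3%) and 0 down (median 0.53), with 4 of 21 up without DEN 1. Timp1, a protease inhibitor, changed by 1.08 and lost its call without DEN 1 (0.92). Dcn, the proteoglycan decorin, changed by 1.21 and lost its call under 3 of 19 alternatives, without DEN 1 (1.02) or control 3 (0.87) among them. Tgfb1 rose by 0.52, whereas Col1a1 had 1.35, 1.14 and 0.88 in DEN livers and 0.87, 0.42 and 0.68 in control livers and was not called. Of 12 stellate cell markers 1 rose (8.3%), Cygb, at 0.97, a call lost under 6 of 19 alternatives. Cholangiocyte markers had 0 of 7 called, with 4 above 0 and 3 below. Their summed signals were 8.19 to 9.02 in DEN livers and 6.73 to 7.62 in control livers, which do not overlap.

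Fatty acid and triglyceride synthesis had all 18 tested members below 0 (median −0.45, and −0.05 with spike-in scaling). Of them 2 fell (11.1%, against 8.98% of all genes), 5 with only the 6 arrays. PPARα and fatty acid oxidation genes had 2 of 23 down (8.7%, median −0.13, and 0.28 with spike-in scaling), among them Ehhadh, a peroxisomal enzyme, at −0.71. The respiratory chain had 1 of 23 down (4.3%), and bile acid genes 2 of 12 (16.7%). Cyp7a1, the rate-limiting enzyme of bile acid synthesis, had a value of −1.11 and was not called (adjusted p 0.052), but it was without control 2 (−1.58). Plasma protein genes had 5 of 27 down (18.5%) and acute phase genes 7 of 19 down (36.8%) with 1 up. Without DEN 1 these falling counts were 0 and 1, and with quantile normalization they were also 0 and 1. In a fit of only the 6 arrays they were 21 and 11. Albumin (Alb) had a value of −0.33 and was not called, whereas in the fit of only the 6 arrays it was (adjusted p 0.0166). Pericentral genes had 3 up and 3 down of 16, with the ammonium transporter gene Rhbg at 3.01, 3.15 and 3.43 in DEN livers and 1.48, 1.55 and 0.92 in control livers.

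B cell, endothelial, neutrophil and erythroid markers held 0 to 2 calls each. B cell markers had 1 of 5 up, with summed signals of 40.2 to 45.9 in DEN livers and 39.1 to 48.9 in control livers, which overlap. Endothelial markers had 2 of 9 up, with sums of 75.5 to 79.2 in DEN livers and 68.2 to 76.7 in control livers. Neutrophil and mast cell markers had 1 of 7 down, Tpsab1, a call lost under 10 of 19 alternatives, whereas 4 of 7 were above 0 (median 0.20). Their sums, which follow the brightest members, were 6.57 to 6.74 in DEN livers and 8.28 to 8.77 in control livers. Erythroid markers had 0 of 8 called. Cxcr3, a chemokine receptor of activated T cells, rose by 1.08 and Cxcr4 by 0.99.

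The same genes were then read at day 84, in DEN and control arrays that the day 28 comparison does not use. There 2048 of the 9826 genes rose (20.8%) and 3377 fell (34.4%). Of the day 28 rises 587 also rose at day 84, which is 64.0% of the day 28 rises and 28.7% of the day 84 rises. Of the day 28 falls 628 also fell, 71.2% of the day 28 falls and 18.6% of the day 84 falls. Opposite calls were found for 28 rises and 22 falls. All 20 of the largest rises were called higher at day 84 too, whereas of the 20 largest falls 10 were also lower, 2 were higher and 8 were not called. The DEN and control arrays of day 28 lay on 1 slide and those of day 84 on another, so slide and day cannot be told apart.

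The difference between the days was itself tested, as the DEN effect at day 84 minus that at day 28. By this test 1672 genes were called (17%), 379 of them among those called at day 28. Such a difference can come from the DEN livers, the control livers or both. Gstp1 changed by 0.84 at day 28 and 4.71 at day 84, and Gpx2 by 2.18 and 6.72. Cyp26a1, which degrades retinoic acid, changed by −1.63 and 3.80, though its day 28 call was lost under 10 of 19 alternatives. Dbp, at 2.14 and 0.35, and Cd3d, at 1.30 and 0.40, were called at day 28 and not at day 84. Being called on a single day is not a test of the difference, which is not reported here for either gene. All 18 mitosis genes were called higher at day 84 (median 2.35).

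**Figure D5:**
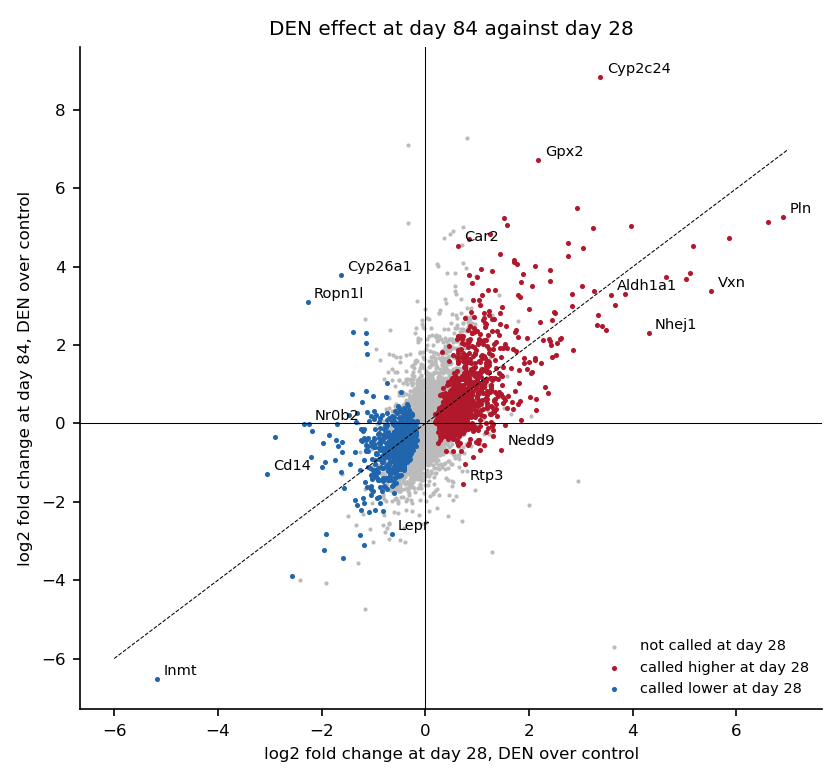
Log2 fold change of DEN over control at day 28 (horizontal) and at day 84 (vertical) for each gene; the dashed line marks equal changes. Cyp2c24 and Gpx2 lie far above the line, Vxn and Nhej1 below it, and Cyp26a1 and Ropn1l have opposite signs.

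Livers given CCl4 for 28 days were set directly against the DEN livers, and 2727 genes were higher with DEN (27.8%) and 1910 lower (19.4%). Against the controls, 24.9% of genes were higher and 37.3% lower with CCl4. DEN and CCl4 effects share the control arrays, so their values are given side by side, and CCl4 replicate 3 lay on another slide than the rest. DEN was given in saline and CCl4 in corn oil, without a separate corn oil control group. Vehicle and compound therefore cannot be told apart here. Of the 20 largest rises 16 were higher with DEN than with CCl4, 2 were lower and 2 were not called. Against the controls, 17 of the 20 were also called higher with CCl4, and Hapln3 was among the 3 that were not. These genes were ranked on the same DEN arrays. Hapln3 had values of 5.11 with DEN and 0.36 with CCl4, and Nhej1 of 4.31 with DEN and 0.88 with CCl4. The p53 targets differed among themselves: Ccng1 had 2.60 with DEN and 0.91 with CCl4, and Aen 1.83 with DEN and 0.23 with CCl4. The death receptor gene Fas had 2.55 with DEN and 2.21 with CCl4, and the difference was not called (0.33, adjusted p 0.15). Mki67, by contrast, changed by 0.82 with DEN and 3.32 with CCl4, and was lower with DEN (−2.49). Cd14 changed by −3.05 with DEN and −0.65 with CCl4, and Inmt by −5.17 and −8.72.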

How the data were processed

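Cy3-labelled liver RNA was read on one-colour Agilent arrays, per the labels. The deposited scanner files hold the authors' processed intensity values, and per the file headers they came from Agilent Feature Extraction, version 10.7.1.1. The authors' deposited value table gives a linear ratio, which equalled that signal divided by a constant for each array (100% of probes within 0.01 log2). Its columns without a sample numbered 0.

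Each array's 75th percentile was subtracted from its log2 processed signals. Of 61537 probes, 28206 matched 1 gene each by RefSeq accession, 33331 matched none, and 18 outlier probes were left out. The brightest passing probe over 18 arrays stood for a gene. One limma 3.58.1 model (R 4.3.3, lmFit and eBayes, 12 residual degrees of freedom) covered all 18 arrays in 6 groups, with Benjamini-Hochberg adjustment over 9826 genes. It was tested on simulated data. The number of arrays limits the precision. Lists are described by counts and medians. Members and lists were chosen with earlier results of these data known.

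Named genes were the 20 largest rises and falls among called genes whose groups did not overlap, up to 4 called members (all where 5 or fewer were called) and the first 3 members of each list, and the 5 largest day differences each way among called genes. Genes outside that rule were chosen after their values were seen. Same-numbered DEN and control arrays correlated at −0.027, 0.011 and 0.115, so numbers were not used as pairs. Alternatives changed background correction, filter, scaling, probes, arrays and blocks. Tables were made with pandas 2.3.3 under Python 3.11.15. Some list members were counted but are not reported here by name.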

Additional observations from a re-analysis of the deposited data

Results flagged for a closer look

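The DEN effect at day 84 minus that at day 28 was called for 1672 genes by limma. Among genes called at day 28 the largest positive differences were of Cyp2c24 (5.47), Cyp26a1 (5.43), Ropn1l (5.37), Gpx2 (4.53) and Car2 (3.90), on the log2 scale. The largest negative differences were of Rtp3 (−2.27), Lepr (−2.17), Vxn (−2.14), Nedd9 (−2.13) and Nhej1 (−2.004). Either group can carry such a difference. Mean Nedd9 levels at days 28 and 84 were −0.30 and −0.52 in DEN livers and −1.77 and 0.15 in control livers. For Gpx2 they were 2.16 and 6.14 in DEN livers and −0.02 and −0.58 in control livers.

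Probes that matched no gene were not part of the comparison, and 1942 of 12573 such probes that passed the filter were called in DEN against control at day 28 (15.4%), 810 higher and 1132 lower.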

How the results depend on the processing

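For DEN against control at day 28: called genes, 1799, became 1163 with normexp with offset 50, 1117 with no filter on dim probes, 3746 with spike-in scaling and 4411 with all non-control probes. Leaving out single arrays gave 798 to 1380, with 798 without DEN 1. For DEN against control at day 28: called genes changed at least 2-fold, 332, became 134 with normexp, 791 with spike-in scaling and 883 with all non-control probes. The list members by direction in DEN against control at day 28, of which 206 were called, became 134 without the filter and 112 to 168 with single arrays left out. The DEN effect at day 84 minus that at day 28 was called for 1672 genes, and for 743 with spike-in scaling. With the replicate block 1661 genes were called, 1582 of them shared with the 1799. With only the 6 arrays 2106 genes were called, 958 higher and 1148 lower, and 1417 of them were shared with the 1799. With spike-in scaling 8 of the named falls turned positive: Adh5 (0.0997), Atp2a2 (0.110), C3 (0.0228), Cdh2 (0.0816), Fgb (0.0394), Hspa8 (0.105), Ndufb5 (0.141), Stat2 (0.0495). Fgb also did with quantile normalization (0.0061). Of genes not called, Alb turned to 0.0372 with quantile normalization and 0.0756 with spike-in scaling, and Cdkn1a to 0.137 with spike-in scaling, 1.35 with all probes and 0.908 with the mean over its probes. Leaving out an array lowers the number of samples by construction. The cause of the other shifts was not tested. Signal over background limits the dim genes, whose folds are bounds.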
